A study of Homo sapiens with 44 samples.

Results

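The glycolysis and hypoxia response genes described here are 36 listed genes, picked by symbol from the 40663 symbols of the count table of a cytokine response experiment in Ccd-18Co, a fibroblast line from normal human colon. Bulk RNA sequencing (RNA-seq) covered 44 libraries in 11 groups of 4 replicates, unstimulated cells and cells given 1 of 10 cytokines, to record the response of intestinal stroma to each cytokine found in Crohn's disease. The stimuli were TNF, OSM, TGF-β1, IFNα and IFNγ, and the interleukins IL-1β, IL-6, IL-13, IL-17A and IL-22. Of the 36 genes, 31 had enough counts to be tested and 5 did not: PFKL, PFKFB4, ALDOC, EGLN3 and CA9.

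All groups, the unstimulated one included, were kept in serum-free medium for 72 h before the 24 h of stimulation, so every library is from starved cells of 1 line. The dose was 10 ng/ml for 9 of the cytokines; for IL-1β it was 0.1 ng/ml by the labels and methods and 0.01 ng/ml by a legend of the study. Nothing states whether the 4 replicates were separate cultures, so the p-values measure the spread between these libraries, which may be technical. The labels and methods name no change of oxygen, and in bulk RNA fewer cells of a kind and less RNA per cell cannot be told apart.

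Glycolysis splits glucose into pyruvate in the cytosol. Glucose enters through SLC2A transporters, hexokinase traps it as a phosphate, and the payoff steps from glyceraldehyde-3-phosphate dehydrogenase (GAPDH) to pyruvate kinase (PKM) yield ATP. Lactate dehydrogenase then turns pyruvate into lactate, which leaves through monocarboxylate transporters, whereas pyruvate dehydrogenase, which PDK kinases switch off, turns pyruvate carried into mitochondria into acetyl-CoA. The hypoxia-inducible factor HIF-1 is marked for destruction by the EGLN prolyl hydroxylases when oxygen is present, and otherwise binds short DNA elements near many glycolytic genes and near genes such as BNIP3, CA9 and ADM. Its alpha subunit, HIF1A, is controlled largely at the protein level, which RNA-seq does not measure. Fibroblasts in inflamed tissue are known to draw on glycolysis.

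Total counts per library were between 742173 and 2213424, and 3 counts, used here as the detection floor, correspond to 1.39 to 3.85 CPM, the counts scaled to a common library size. The fibroblast markers fixed for the check (11 genes, among them COL1A1 and PDGFRB) summed to 17799 to 53062 CPM, against 4.81 to 40.6 for 6 epithelial and 0 to 2.65 for 4 endothelial genes. The 6 immune genes summed to 0 to 20.6 CPM outside IFNα and to 38 to 73.8 CPM with IFNα, where CD68 made up most of the sum, CD3E was at 0 in all 44 libraries and PTPRC was at 0 in 35. 1 unstimulated library stood apart. Its GC tilt, the median log2 deviation of genes above the upper quartile of transcript GC content (51.9%) minus that of genes below the lower quartile (40.3%), was 0.39 in unstimulated replicate 1 and between −0.44 and −0.41 in replicates 2 to 4. The summed level of the 8 tested lower glycolysis genes (ALDOA, TPI1, GAPDH, PGK1, PGAM1, ENO1, ENO2 and PKM) was 2362 CPM in that library and 1167 to 1317 CPM in the other 3. The numbers of calls are therefore given with and without it, and for some genes also the fold change without it. Many values are also given with a GC correction added after seeing the data.

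In unstimulated cells, levels are compared between genes per kilobase of canonical transcript. The lactate dehydrogenase subunits LDHB (411 ± 32.6 CPM per kb, SD, n = 4) and LDHA (267 ± 24.7) stood first, followed by GAPDH (243 ± 74), HIF1A (225 ± 35.6), the isomerase TPI1 (193 ± 90.2), the aldolase ALDOA (161 ± 77.6) and the enolase ENO1 (148 ± 70.9). From LDHA to ENO1 each gene overlapped its neighbour in this order, while every LDHB value (368 to 445) lay above every LDHA value (233 to 292). Hexokinase was mainly HK2, at 22.7 ± 8.13 CPM per kb against 1.71 ± 1.18 for HK1. CA9, the carbonic anhydrase often used to report hypoxia, had 1 count in all 44 libraries together, and CA12, its relative, was at 4.07 ± 1.38 CPM per kb. The other 4 untested genes had 51 (ALDOC) to 129 (EGLN3) counts over the 44 libraries.

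Across the 310 combinations of 31 genes and 10 cytokines, 37 differences from unstimulated cells passed the test (edgeR's quasi-likelihood test over all 9513 genes, Benjamini-Hochberg adjusted p under 0.05), 33 higher and 4 lower. They fell on 18 genes, and 13 of the tested genes had none. Asked whether a gene differed among any of the 11 groups, the test called 20 of the 31 (64.5%), against 35.7% of all genes tested. The members were chosen with earlier results of these data known. Some also had far more counts (LDHA 743 to 1338 unstimulated) than the median of 34 per tested gene. The shares here and below are therefore descriptive and do not test the members against the background. IFNγ raised 12 of the 31 and lowered 0 (38.7%; background over all genes 10.6%, 5.52% higher and 5.13% lower), and OSM raised 7 and lowered 0 (22.6%; background 3.96%, 1.42% higher and 2.54% lower). IFNα raised 5 and lowered 0 (16.1%; background 9.85%, 4.99% and 4.86%), TNF raised 4 and lowered 0 (12.9%; background 11.5%, 5.37% and 6.09%), and TGF-β1 raised 3 and lowered 1 (12.9%; background 5.69%, 2.61% and 3.08%). IL-13 lowered 3 and raised 0 (9.68%; background 3.93%, 1.53% higher and 2.4% lower). With IL-1β 1 gene rose (3.23%; background 7.38%, 3.46% and 3.92%) and with IL-17A 1 rose (3.23%; background 1.52%, 0.599% and 0.925%). For TNF and IL-1β the share was near or under the background. The median log2 fold change over the 31 genes was 0.67 with IFNγ, 0.46 with OSM and 0.42 with TNF, while the median over all genes tested lay between −0.05 and 0.00 in every comparison.

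**Figure D1:**
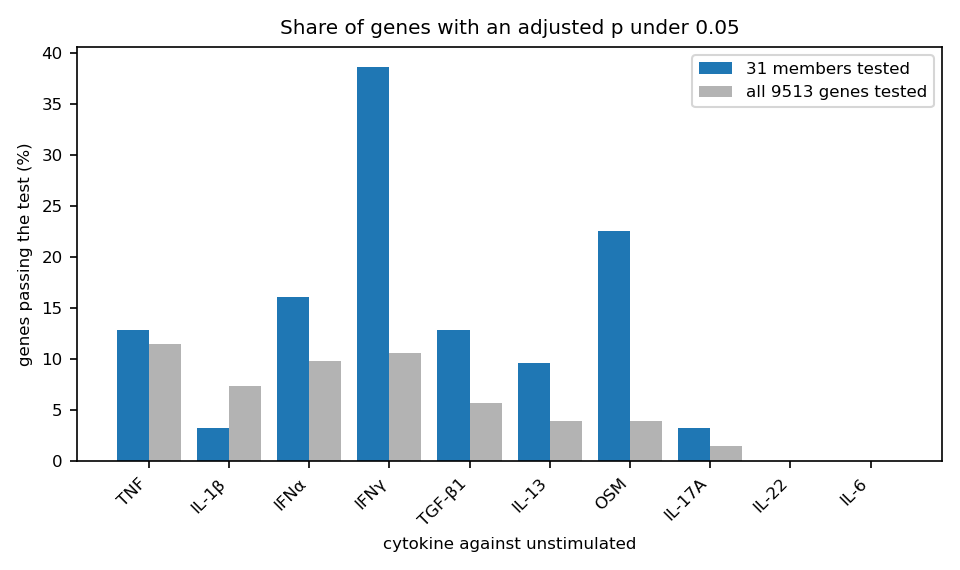
Bars give the percentage of genes with an adjusted p under 0.05 (y axis) for each cytokine against unstimulated cells (x axis), blue for the 31 members tested and grey for all 9513 genes. The blue bar was tallest for IFNγ (38.7%) and OSM (22.6%), and IL-22 and IL-6 had none.

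With IL-22 and IL-6 0 of the 31 passed in edgeR and in DESeq2 (background 0% with IL-22 and 0.0105% with IL-6, the latter 0.0105% higher and 0% lower), and 0 had an unadjusted p under 0.05 by either tool (background 10.9% and 2.45% in edgeR). DESeq2 gave no adjusted p for 13 of them with IL-22.

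**Figure D2:**
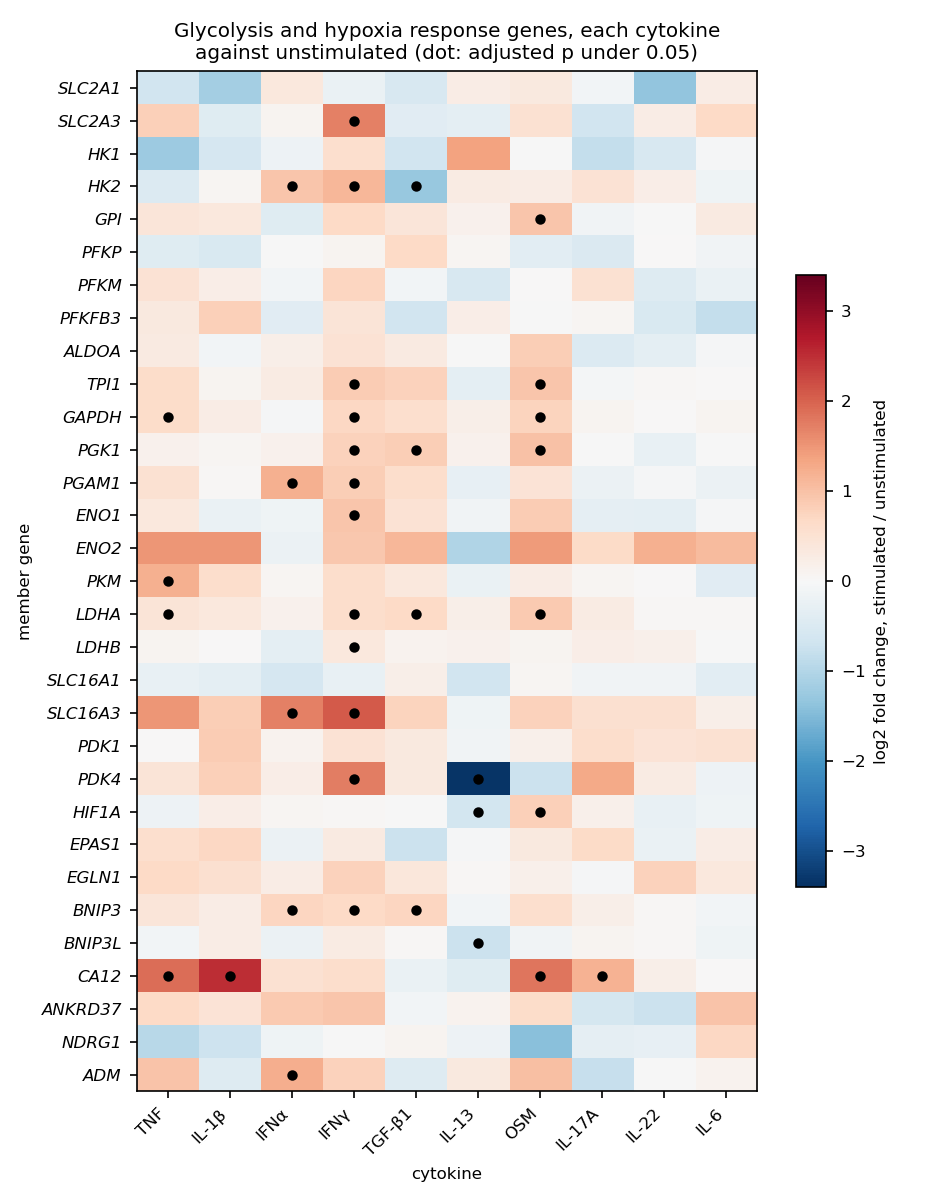
Colour gives the log2 fold change against unstimulated cells for the 31 members tested (rows, in pathway order) and 10 cytokines (columns), and a dot marks an adjusted p under 0.05. Dots gather in the IFNγ column and in the rows from TPI1 to ENO1 and of LDHA and CA12, and the darkest blue square is PDK4 with IL-13 (−3.34).

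The promoters of 5 members with contrasting responses are shown with the HIF binding core marked. The sequences are RefSeq's (GRCh38.p14), from 250 bases before to 50 after RefSeq's start of the gene, 5′ to 3′ on the gene's strand. Capitals mark the core ACGTG, and its variant GCGTG, on either strand. A run of 6 capitals holds the first core on both strands, and is counted as 2. PGK1 rose with 3 cytokines, LDHA with the same 3 and TNF, BNIP3 with 2 of the 3 and IFNα, CA12 rose in a set of its own, and PDK4 responded in both directions.
LDHA, chr11:18394313-18394612, plus strand: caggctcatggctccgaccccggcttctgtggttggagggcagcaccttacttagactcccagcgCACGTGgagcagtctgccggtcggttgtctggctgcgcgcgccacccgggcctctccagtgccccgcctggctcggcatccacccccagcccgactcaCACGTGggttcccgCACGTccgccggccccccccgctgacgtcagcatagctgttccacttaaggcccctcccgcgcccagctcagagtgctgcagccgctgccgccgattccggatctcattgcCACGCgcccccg
PGK1, chrX:78103998-78104297, plus strand: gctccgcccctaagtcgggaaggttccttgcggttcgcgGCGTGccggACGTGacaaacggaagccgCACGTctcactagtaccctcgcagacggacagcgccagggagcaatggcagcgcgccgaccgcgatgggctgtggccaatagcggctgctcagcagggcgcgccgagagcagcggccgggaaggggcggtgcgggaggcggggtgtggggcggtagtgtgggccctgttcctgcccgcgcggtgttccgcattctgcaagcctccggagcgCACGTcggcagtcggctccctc
BNIP3, chr10:131981874-131982173, minus strand: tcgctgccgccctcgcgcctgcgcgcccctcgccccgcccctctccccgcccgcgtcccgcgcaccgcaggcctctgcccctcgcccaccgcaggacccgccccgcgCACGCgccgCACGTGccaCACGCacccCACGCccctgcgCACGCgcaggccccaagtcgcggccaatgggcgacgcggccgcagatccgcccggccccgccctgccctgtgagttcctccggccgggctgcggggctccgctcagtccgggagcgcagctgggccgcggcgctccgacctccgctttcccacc
CA12, chr15:63381797-63382096, minus strand: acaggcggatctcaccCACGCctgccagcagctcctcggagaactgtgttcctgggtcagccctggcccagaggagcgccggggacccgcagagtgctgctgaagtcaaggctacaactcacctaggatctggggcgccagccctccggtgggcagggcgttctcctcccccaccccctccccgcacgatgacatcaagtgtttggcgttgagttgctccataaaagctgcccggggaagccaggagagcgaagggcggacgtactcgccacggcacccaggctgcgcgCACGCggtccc
PDK4, chr7:95596467-95596766, minus strand: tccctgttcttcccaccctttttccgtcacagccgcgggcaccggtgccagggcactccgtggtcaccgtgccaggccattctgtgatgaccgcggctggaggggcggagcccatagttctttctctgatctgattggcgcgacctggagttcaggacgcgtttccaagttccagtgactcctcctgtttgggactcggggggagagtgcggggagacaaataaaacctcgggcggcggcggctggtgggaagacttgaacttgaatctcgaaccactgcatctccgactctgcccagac

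These windows held 6 cores in LDHA, 4 in PGK1, 6 in BNIP3, 2 in CA12 and 0 in PDK4. Those of TPI1, PGAM1 and SLC16A3, which rose with 2 cytokines each, held 0. That of ANKRD37, which passed with no cytokine, held 3. Whether the number of cores went with the response was not tested. Either core was found in 23 of the 32 member promoters in the table (71.9%) and in 48.4% of all 35116 promoters of this length. Counted with or without the other core, ACGTG was in 37.5% and 21.4%, and GCGTG in 50% and 36.5%. The STAT spacing TTCNNNGAA, searched on both strands, was in 1 of the 32 (PDK1) and in 7.66% of all promoters. A match describes the letters only, and a factor's binding was not measured here.

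LDHA, which makes lactate from pyruvate, rose with 4 cytokines and is encoded on chromosome 11 (18394560 to 18408425, GRCh38, plus strand). Its level was 655, 615, 523 and 602 CPM in unstimulated replicates 1 to 4. With OSM it was 1098, 1136, 997 and 1183 CPM, with TGF-β1 1050, 1096, 887 and 804 CPM, and with IFNγ 882, 630, 986 and 1130 CPM. All OSM and TGF-β1 libraries lay above all unstimulated ones, and IFNγ replicate 2 fell inside the unstimulated range. The log2 fold change was 0.88 (SE 0.14; edgeR adjusted p = 2.86e-05) with OSM, 0.68 (SE 0.14; adjusted p = 0.00128) with TGF-β1 and 0.60 (SE 0.14; adjusted p = 0.00254) with IFNγ. Cytokines were also compared directly in the same fit, where between 0.0105% and 17.1% of all genes passed in the 45 pairs (median 8.38%). The difference of OSM from TGF-β1 (0.20 in log2 level, adjusted p = 0.524) and from IFNγ (0.28, adjusted p = 0.277) did not pass the test, and LDHA was higher with OSM than with IFNα by 0.74 (adjusted p = 1.16e-04) on the log2 scale. These 3 calls passed without any single library and with the GC correction (0.97, 0.80 and 0.78). In a fit of only the groups compared, the OSM call passed and those with TGF-β1 (adjusted p = 0.0592) and IFNγ (adjusted p = 0.12) did not. With TNF, LDHA was at 726 to 928 CPM, above all unstimulated libraries (log2 fold change 0.44, SE 0.14, adjusted p = 0.0289), but this call failed in 5 of the 8 fits that left out 1 library, those without unstimulated replicate 2, 3 or 4 or TNF replicate 3 or 4 (adjusted p 0.0519 to 0.0903).

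PGK1, which makes the first ATP of the payoff phase, followed LDHA. Its GENCODE span on chromosome X (77910739 to 78129295, plus strand) begins well before the RefSeq promoter window shown above. That span overlaps ATP7A on the same strand, which had 1011 counts to the 21050 of PGK1. Unstimulated replicates 1 to 4 had 303, 256, 231 and 275 CPM, and OSM libraries had 637, 497, 482 and 500 CPM, with no overlap. TGF-β1 libraries had 597, 557, 459 and 287 CPM, of which replicate 4 was within the unstimulated range, and IFNγ libraries had 397, 307, 572 and 553 CPM, all above it. Against unstimulated cells the log2 fold change was 0.99 (SE 0.18; adjusted p = 2.3e-04) with OSM, 0.83 (SE 0.18; adjusted p = 0.00196) with TGF-β1 and 0.78 (SE 0.18; adjusted p = 0.00207) with IFNγ. PGK1 was higher with OSM than with IL-22 by 1.23, IL-17A by 1.00, IL-1β by 0.93 and TNF by 0.85 on the log2 scale (adjusted p 6.99e-06 to 6.03e-04). Leaving out any 1 library kept all 3 calls, and with the GC correction the values were 1.06, 0.94 and 0.93. In the fit of only the groups compared, PGK1 passed with OSM and not with TGF-β1 (adjusted p = 0.0609) or IFNγ (adjusted p = 0.0601).

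**Figure D3:**
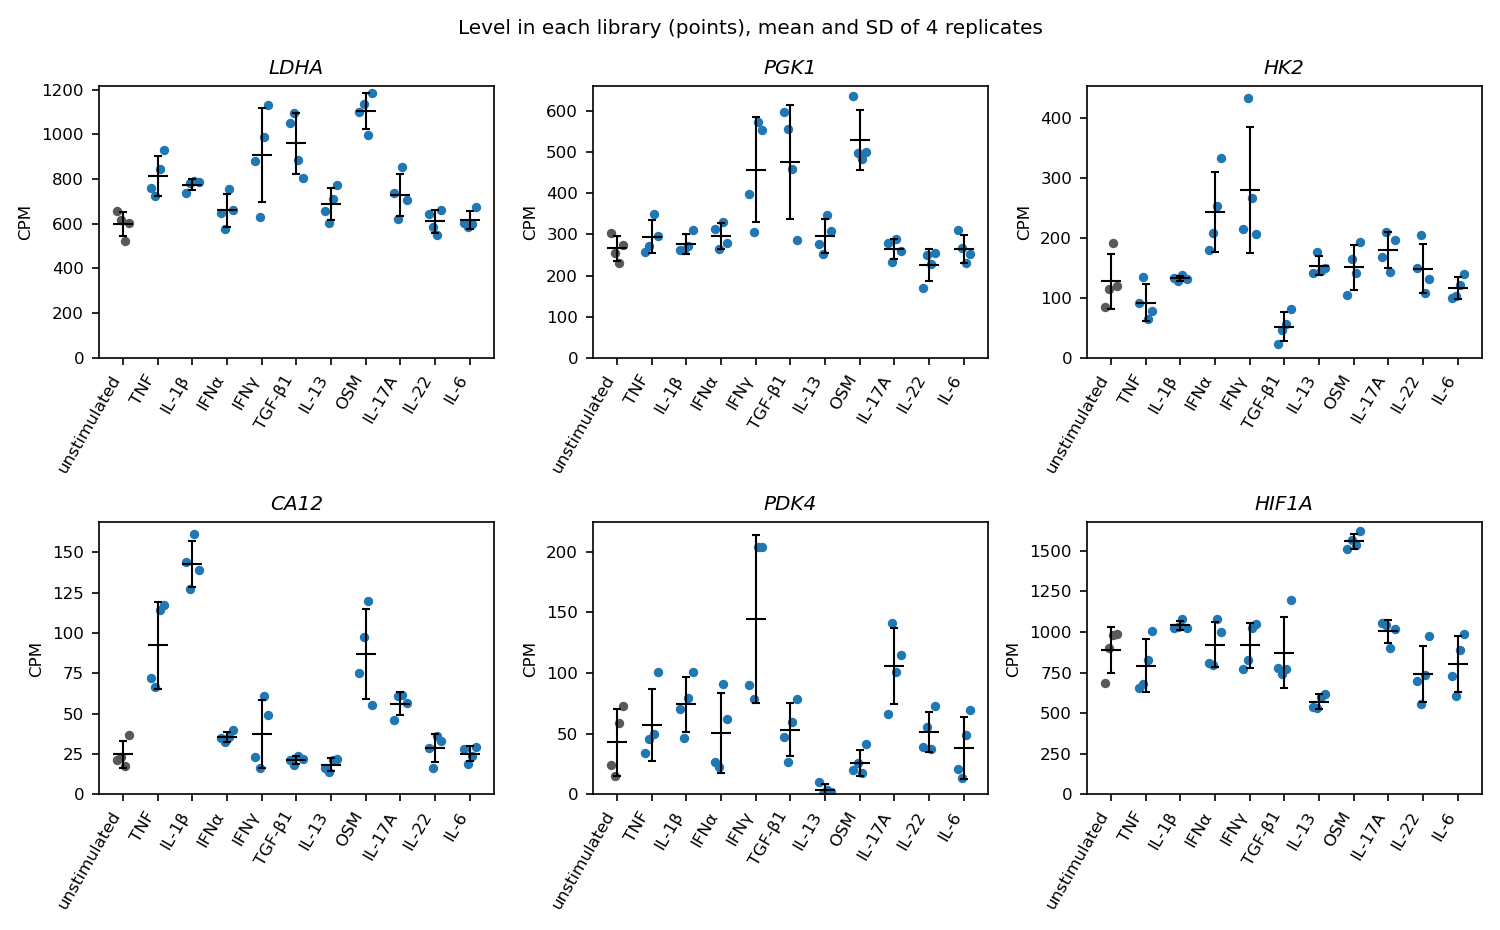
Each point is 1 library's level in CPM (y axis, from 0) for 6 members by group (x axis), grey for unstimulated and blue for stimulated cells; the bar and whiskers are the mean and SD of 4 replicates. LDHA and PGK1 are highest with OSM, IFNγ and TGF-β1, HK2 is lowest with TGF-β1, CA12 is highest with IL-1β, PDK4 is near 0 with IL-13 and HIF1A with OSM stands above every other library.

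Of the other lower glycolysis genes, GAPDH also rose with 3 cytokines, and most calls depended on single libraries. Of the 8 tested, 5 rose with IFNγ (TPI1, GAPDH, PGK1, PGAM1 and ENO1; median log2 fold change over the 8 of 0.81) and 3 with OSM (TPI1, GAPDH and PGK1; median 0.85). With TNF 2 rose (GAPDH and PKM), and with IFNα (PGAM1) and TGF-β1 (PGK1) 1 each. Over all genes tested, the share higher was 5.52% with IFNγ, 1.42% with OSM, 5.37% with TNF, 4.99% with IFNα and 2.61% with TGF-β1. Counts of 1 or 2 of 8 are too small to set against these shares. TPI1 was at 442, 187, 191 and 224 CPM in unstimulated cells, at 392, 251, 580 and 659 CPM with IFNγ and at 627, 516, 508 and 352 CPM with OSM. Unstimulated replicate 1 alone overlapped both stimulated groups. The rise was 0.85 on the log2 scale (SE 0.25; adjusted p = 0.0213) with IFNγ and 0.94 (SE 0.25; adjusted p = 0.0219) with OSM, and without that library 1.23 and 1.32. ENO1 was at 445, 252, 191 and 166 CPM unstimulated and at 432, 253, 586 and 750 CPM with IFNγ, groups that overlap through the same library. The log2 fold change was 0.94 (SE 0.30, edgeR adjusted p = 0.0324), 1.32 without that library and 0.71 with the GC correction. GAPDH, at 244 to 449 CPM unstimulated, was at 411 to 687 CPM with OSM (log2 fold change 0.77), 365 to 674 CPM with IFNγ (0.70) and 361 to 536 CPM with TNF (0.63). Each of these groups overlapped the unstimulated one through unstimulated replicate 1 alone. PKM rose with TNF, from 26.2 to 110 CPM in unstimulated libraries to 99.9 to 130 CPM. The log2 fold change was 1.21 (SE 0.41, edgeR adjusted p = 0.0447). It was 1.91 without unstimulated replicate 1, the library at 110 CPM, and 1.06 with the GC correction.

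PGAM1, phosphoglycerate mutase, was the lower glycolysis gene that rose with IFNα. It was at 156, 67.1, 99.2 and 83.3 CPM unstimulated and at 271, 255, 230 and 195 CPM with IFNα, without overlap (log2 fold change 1.22, SE 0.27, adjusted p = 0.00123), and this call passed without any 1 library and with the GC correction (1.13). PGAM1 was higher with IFNα than with 5 of the other 9 cytokines, by 1.18 (IL-1β) to 1.51 (IL-13) on the log2 scale, and its difference from IFNγ did not pass (0.39, adjusted p = 0.456). With the GC correction it differed from 8 of them. With IFNγ it was at 134, 98, 231 and 265 CPM, with replicates 1 and 2 inside the unstimulated range (log2 fold change 0.84, SE 0.27, adjusted p = 0.0384; 0.66 and adjusted p = 0.0652 with the GC correction).

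The other lower glycolysis calls failed in several of the 8 fits without 1 library. With IFNγ, TPI1, ENO1 and PGAM1 each passed in 3 of 8 and GAPDH in 4 of 8; all 4 failed without unstimulated replicate 2, 3 or 4 or IFNγ replicate 4, and TPI1, ENO1 and PGAM1 also without IFNγ replicate 3 (adjusted p 0.059 to 0.22). With OSM, TPI1 and GAPDH passed in 3 of 8 and failed without unstimulated replicate 2, 3 or 4 or OSM replicate 1 or 2 (adjusted p 0.0573 to 0.157). With TNF, GAPDH and PKM passed in 2 of 8 and failed without any library of the 2 groups but unstimulated replicate 1 and TNF replicate 2 (adjusted p 0.0796 to 0.173). ALDOA and ENO2 passed with no cytokine; ALDOA was at 264 ± 128 CPM unstimulated and 472 ± 153 CPM with OSM (log2 fold change 0.83, adjusted p = 0.083), and it differed among the 11 groups (adjusted p = 0.00658).

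In the 3 groups with the highest summed levels, these genes moved with the GC tilt of the library. Within the IFNγ group the tilt ran from −0.15 in replicate 2 to 0.66 in replicate 4 and the summed lower glycolysis level from 1565 to 3517 CPM, within TGF-β1 from −0.54 in replicate 4 to 0.64 in replicate 2 and from 1345 to 3137 CPM, and within OSM from 0.00 in replicate 4 to 0.62 in replicate 1 and from 2169 to 3504 CPM. Other groups did not all keep this order. TNF replicate 4 had the lowest tilt of its group (−0.04) and 2280 CPM, against 1971 CPM in replicate 1 (0.41), and IL-22 replicate 4 had the lowest tilt (−0.26) and 1393 CPM, against 1235 and 1304 CPM in replicates 1 (0.07) and 2 (0.16). After the GC correction, the IFNγ log2 fold change was lower for the GC-rich transcripts of GAPDH (56.1% GC; 0.41), TPI1 (54%; 0.63) and ENO1 (54.4%; 0.71), and higher for the GC-poor ones of PGK1 (42.8%; 0.93) and LDHA (41.8%; 0.78). GAPDH, TPI1 and ENO1 still passed with IFNγ, and GAPDH and TPI1 with OSM (0.54 and 0.76). Tilt also differed between the groups compared. Its group mean was lowest in unstimulated cells (−0.22) and highest with IFNγ (0.36), OSM (0.27), TNF (0.23) and TGF-β1 (0.18). These groups thus differed from unstimulated cells in tilt as well as in cytokine, and beyond the GC correction the part of each was not tested. The part of RNA or library quality in the tilt was not tested.

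**Figure D4:**
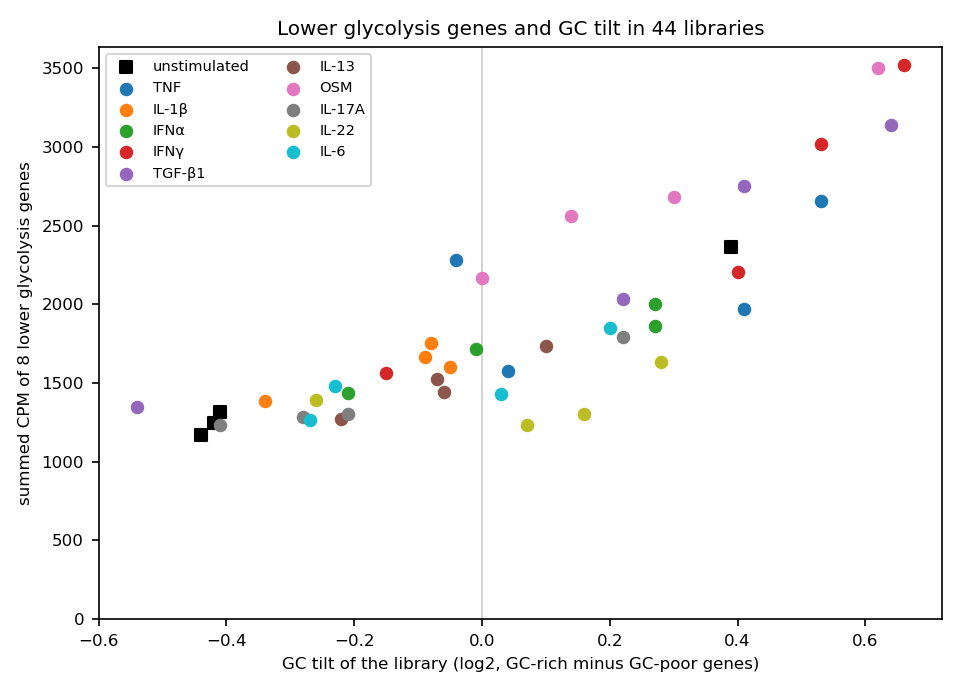
Each point is 1 of 44 libraries, with its GC tilt (x axis, log2) and the summed level of the 8 tested lower glycolysis genes (y axis, CPM); black squares are unstimulated. Unstimulated replicate 1 (0.39; 2362 CPM) sits far from the other 3 (−0.44 to −0.41; 1167 to 1317 CPM), and the 4 highest sums belong to IFNγ, OSM and TGF-β1 libraries with a tilt of 0.53 or more.

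In upper glycolysis, HK2, the inducible hexokinase that commits glucose to the cell (chromosome 2, 74834127 to 74893359, plus strand), went in opposite directions. It was at 84.2, 114, 192 and 120 CPM unstimulated. With IFNγ it was at 215, 432, 266 and 206 CPM, above every unstimulated library (log2 fold change 1.13, SE 0.26, adjusted p = 0.00218), and with TGF-β1 at 23.4, 45.7, 57.2 and 80.7 CPM, below every one (−1.29, SE 0.28, adjusted p = 0.00196). Both calls passed without any 1 library and with the GC correction (1.04 and −1.34), and in the fit of only the groups compared the TGF-β1 call did not (adjusted p = 0.0533). HK2 was lower with TGF-β1 than with 8 of the other 9 cytokines, by 2.43 on the log2 scale against IFNγ (adjusted p = 7.08e-09) and 2.22 against IFNα (adjusted p = 4.3e-08); with TNF it was 0.82 higher than with TGF-β1, a difference that did not pass (adjusted p = 0.0712). With IFNα it was at 179, 208, 252 and 332 CPM, and unstimulated replicate 3 lay inside that range (log2 fold change 0.93, SE 0.26, adjusted p = 0.0128). The IFNα call was lost without unstimulated replicate 1 (0.77, adjusted p = 0.0676), without IFNα replicate 4 (0.77, adjusted p = 0.073) and with the GC correction (0.83, adjusted p = 0.0686).

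GPI, which isomerizes glucose-6-phosphate, was at 28.1 to 50.4 CPM unstimulated and 45.4 to 87.4 CPM with OSM (log2 fold change 0.93, SE 0.28, adjusted p = 0.0464). That call passed in 2 of 8 fits without 1 library, failed without unstimulated replicate 2, 3 or 4 or OSM replicate 1, 2 or 3 (adjusted p 0.0875 to 0.16) and failed with the GC correction (0.75, adjusted p = 0.106). HK1, the phosphofructokinase subunits PFKP and PFKM, and PFKFB3, whose product activates phosphofructokinase, passed with no cytokine. PFKP was at 58.9 ± 13.6 CPM unstimulated and 95.7 ± 35.2 CPM with TGF-β1 (log2 fold change 0.69, adjusted p = 0.12), the group in which HK2 fell, and it differed among the 11 groups (adjusted p = 0.00674).

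Of the glucose transporters, SLC2A3 (GLUT3) rose with IFNγ and SLC2A1 (GLUT1) passed with no cytokine. SLC2A3 was at 18.1, 13.1, 23.9 and 17.8 CPM unstimulated and at 44.4, 21.6, 124 and 52 CPM with IFNγ. IFNγ replicate 3 lay far above the rest and replicate 2 within the unstimulated range (log2 fold change 1.72, SE 0.43, adjusted p = 0.00556; 1.14 and adjusted p = 0.111 without replicate 3). SLC2A1 was at 7.19 ± 4.84 CPM unstimulated and between 2.87 ± 1.46 CPM (IL-22) and 9.27 ± 1.95 CPM (IFNα) in the stimulated groups.

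Among the genes that handle lactate, the exporter SLC16A3 (MCT4) had the largest log2 fold changes at the lowest counts. It was at 3.42 to 5.88 CPM (5 to 12 counts) unstimulated, at 11.2 to 17.1 CPM (18 to 27 counts) with IFNα and at 6.03 to 28.5 CPM (8 to 40 counts) with IFNγ, both groups above all unstimulated libraries. The rise was 2.08 on the log2 scale (SE 0.56; adjusted p = 0.00919) with IFNγ and 1.71 (SE 0.55; adjusted p = 0.0385) with IFNα; with the GC correction these were 1.54 (adjusted p = 0.045) and 1.5 (adjusted p = 0.0507). The IFNγ call was lost without IFNγ replicate 4 (1.82, adjusted p = 0.053), and the IFNα call passed in 2 of 8 fits, failing without unstimulated replicate 2, 3 or 4 or IFNα replicate 1, 2 or 3 (adjusted p 0.0644 to 0.103). The gene span of SLC16A3 overlaps that of CSNK1D on the opposite strand, which had 864 counts to its 542. The default settings of kallisto, which the methods name, do not use strand, so the counts of SLC16A3 may be uncertain. The span of PFKM overlaps that of SENP1 in the same way (765 counts for PFKM, 527 for SENP1). Spans include introns, and whether the transcripts share sequence was not tested. LDHB, the subunit that favours pyruvate, was at 479, 534, 580 and 551 CPM unstimulated and at 661, 664, 706 and 732 CPM with IFNγ, without overlap (log2 fold change 0.36, SE 0.11, adjusted p = 0.0296). The LDHB call failed without unstimulated replicate 1 or 2 or IFNγ replicate 4 (0.31 to 0.38, adjusted p 0.0555 to 0.0919). The importer SLC16A1 (MCT1) passed with no cytokine.

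PDK4, a kinase that switches off pyruvate dehydrogenase, gave the widest range of all members (chromosome 7, 95583499 to 95596516, minus strand). It was at 24.5, 15.3, 59.1 and 73.1 CPM unstimulated and at 9.96, 0, 4.04 and 1.78 CPM with IL-13, from 15, 0, 7 and 2 counts. Every IL-13 library was below every unstimulated one, and 2 of the 4 were at or under the 3-count floor. The fitted log2 fold change was −3.34 (SE 0.62; adjusted p = 4e-04), passed without any 1 library (−4.26 to −2.93) and was −3.23 with the GC correction. PDK4 was lower with IL-13 than with each of the other 9 cytokines, by 2.61 (OSM) to 5.09 (IFNγ) on the log2 scale. With IFNγ it was at 90.4, 78.9, 204 and 204 CPM, above all unstimulated libraries (log2 fold change 1.75, SE 0.48, adjusted p = 0.0107; 1.5 and adjusted p = 0.0595 without unstimulated replicate 2). Its relative PDK1 passed with no cytokine and was at 12.1 ± 3.61 CPM unstimulated and 11.1 ± 3.4 CPM with IL-13.

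HIF1A, the oxygen-regulated subunit of HIF-1, was higher with OSM and lower with IL-13 (chromosome 14, 61695513 to 61748259, plus strand). Unstimulated replicates 1 to 4 had 685, 900, 979 and 986 CPM. OSM libraries had 1513, 1566, 1535 and 1619 CPM, above every library of the other 10 groups, and IL-13 libraries had 536, 529, 602 and 619 CPM, all below the unstimulated ones. The change in log2 level was 0.81 (SE 0.17; adjusted p = 0.00147) with OSM and −0.63 (SE 0.17; adjusted p = 0.0193) with IL-13. HIF1A differed between OSM and each of the other 9 cytokines, by 0.58 (IL-1β) to 1.45 (IL-13) on the log2 scale. The OSM call passed without any 1 library and was 0.98 with the GC correction. The IL-13 call passed in 3 of 8 fits, failing without unstimulated replicate 2, 3 or 4 or IL-13 replicate 1 or 2 (adjusted p 0.0509 to 0.0866), and was −0.53 (adjusted p = 0.0251) with the GC correction. EPAS1, which encodes HIF-2 alpha, and EGLN1, the main HIF prolyl hydroxylase, passed with no cytokine; with OSM they were at 21.7 ± 4.11 and 17.9 ± 5.17 CPM, against 17.4 ± 3.43 and 15.8 ± 4.65 CPM unstimulated.

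CA12, a membrane carbonic anhydrase that balances acid outside the cell, had the smallest p of all members in the test of any difference among groups (adjusted p = 9.24e-14; chromosome 15, 63321378 to 63381846, minus strand). It was at 21.5, 23.3, 17.6 and 36.9 CPM unstimulated, at 144, 127, 161 and 139 CPM with IL-1β, at 72, 66.3, 114 and 117 CPM with TNF, at 74.9, 97.2, 120 and 55.2 CPM with OSM and at 45.9, 60.9, 61.7 and 56.3 CPM with IL-17A. All 16 of these libraries lay above the unstimulated ones. The log2 fold change was 2.52 (SE 0.29; adjusted p = 9.75e-09) with IL-1β, 1.90 (SE 0.28; adjusted p = 3.58e-06) with TNF, 1.81 (SE 0.28; adjusted p = 2.33e-05) with OSM and 1.17 (SE 0.28; adjusted p = 0.0206) with IL-17A. IL-1β, given at the lowest dose, differed from 7 of the other 9 cytokines, by 1.35 (IL-17A) to 2.94 (IL-13) on the log2 scale, and its differences from TNF (0.62, adjusted p = 0.317) and OSM (0.71, adjusted p = 0.0788) did not pass. The calls with IL-1β, TNF and OSM passed without any 1 library and with the GC correction (2.53, 1.83 and 1.69). The IL-17A call failed without unstimulated replicate 1, 2 or 3 or IL-17A replicate 2 or 3 (1.05 to 1.15, adjusted p 0.0562 to 0.0915). CA12 was the single member that rose with IL-1β or IL-17A.

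BNIP3 and BNIP3L, receptors that direct mitochondria to autophagy, rose and fell with different cytokines. BNIP3 was at 93.6 to 113 CPM unstimulated, at 153 to 185 CPM with TGF-β1, at 103 to 229 CPM with IFNα and at 87.2 to 235 CPM with IFNγ. The TGF-β1 libraries lay above all unstimulated ones and the other groups overlapped them. On the log2 scale the changes were 0.74 (adjusted p = 0.0401) with TGF-β1, 0.72 (adjusted p = 0.0299) with IFNα and 0.67 (adjusted p = 0.0472) with IFNγ. These calls passed in 1, 4 and 2 of 8 fits without 1 library. The TGF-β1 call failed without every library but TGF-β1 replicate 3, the IFNγ call without any unstimulated library or IFNγ replicate 3 or 4, and the IFNα call without unstimulated replicate 2 or 3 or IFNα replicate 3 or 4 (adjusted p 0.0518 to 0.277). BNIP3L was at 155 to 222 CPM unstimulated and 90.9 to 163 CPM with IL-13 (log2 fold change −0.73, SE 0.18, adjusted p = 0.0125), a call lost without unstimulated replicate 3 or IL-13 replicate 1 or 2 (adjusted p 0.0573 to 0.0816) and with the GC correction (−0.59, adjusted p = 0.051).

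ADM, the vasodilator peptide adrenomedullin, rose with IFNα. It was at 50.9, 25.5, 4.22 and 21.2 CPM unstimulated and at 83.2, 65.8, 42.1 and 53.6 CPM with IFNα, overlapping only through unstimulated replicate 1. The log2 fold change was 1.24 (SE 0.38, edgeR adjusted p = 0.0257), 1.85 without that library and 1.17 with the GC correction. The call failed without unstimulated replicate 2, 3 or 4 or IFNα replicate 1 or 2 (0.92 to 1.24, adjusted p 0.0512 to 0.106). NDRG1 and ANKRD37, both often used as hypoxia reporters, passed with no cytokine. ANKRD37 was at 3.57 ± 1.75 CPM unstimulated. Its gene span overlaps that of UFSP2 on the opposite strand, so its counts may be uncertain, and whether the transcripts share sequence was not tested. NDRG1 was at 8.63 ± 6.11 CPM unstimulated and 3.18 ± 2.27 CPM with OSM (log2 fold change −1.43, edgeR adjusted p = 0.28).

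**Figure D5:**
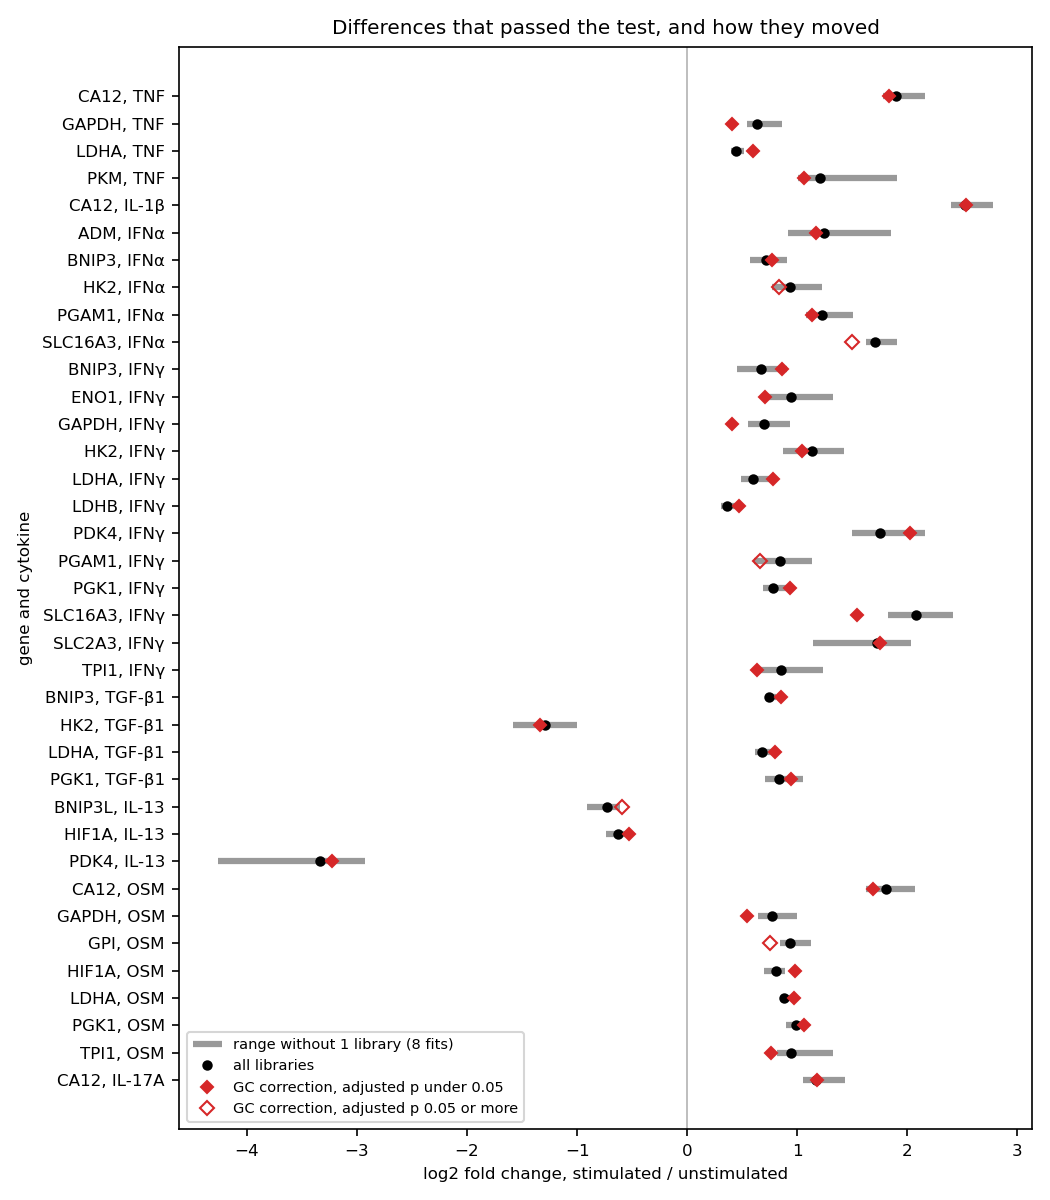
For the 37 differences that passed the test (rows), the black point is the log2 fold change over all libraries (x axis), the grey bar its range over the 8 fits that each left out 1 library of the groups compared, and the red diamond the value with the GC correction, open where it no longer passed. Each of the 37 kept its sign, 5 diamonds are open, and the bars are widest for PDK4 with IL-13 and for ADM and PKM, whose unstimulated libraries differed most.

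Of the 37 calls, 14 passed in all 8 fits without 1 library: CA12 with IL-1β, TNF and OSM, LDHA and PGK1 with OSM, TGF-β1 and IFNγ, HK2 with IFNγ and TGF-β1, PGAM1 with IFNα, HIF1A with OSM and PDK4 with IL-13. With the GC correction 32 of the 37 passed. In the fits of only the groups compared 15 passed: CA12 with IL-1β, TNF and OSM, HK2 with IFNγ and IFNα, PDK4 with IFNγ and IL-13, HIF1A with OSM and IL-13, LDHA and PGK1 with OSM, PGAM1 and SLC16A3 with IFNα, SLC2A3 with IFNγ and BNIP3 with TGF-β1. With all genes of any count, 5 did not pass: LDHA with TNF, SLC16A3 with IFNα, BNIP3 and LDHB with IFNγ and GPI with OSM. Without unstimulated replicate 1 the number of members called was 13 with IFNγ, 10 with OSM, 6 with TNF, 5 with IFNα, 5 with TGF-β1, 3 with IL-13, 1 with IL-1β and 0 with IL-17A. The share of all genes called was not recorded for these refits. Their counts are therefore not read as a result about the members.

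Other genes of these pathways (71 listed, 48 tested) moved in both directions. With IFNγ 3 rose and 4 fell (14.6% of the 48, against 10.6% of all genes tested), with TNF 2 rose and 6 fell (16.7% against 11.5%), and with OSM 2 rose and 1 fell (6.25% against 3.96%). With IL-1β 3 rose and 5 fell (16.7% against 7.38%), with TGF-β1 4 rose and 2 fell (12.5% against 5.69%) and with IL-13 2 rose and 2 fell (8.33% against 3.93%). With IFNα 1 rose and 1 fell (4.17% against 9.85%), and with IL-17A 1 fell (2.08% against 1.52%). These shares rest on 8 genes or fewer, and nothing particular to the list is read from them. Past a log2 fold change of 1.5, the secreted glycoprotein STC1, a known hypoxia target, rose with IL-1β (2.58), TNF (1.98) and IFNγ (1.97) and fell with IL-13 (−4.56), from 2128 ± 1977 CPM unstimulated to 90.3 ± 41.4 CPM. Its rises with TNF (SE 0.66, edgeR adjusted p = 0.0424) and IFNγ (SE 0.66, edgeR adjusted p = 0.0472) passed narrowly, from unstimulated libraries that differed widely. No gene named in this paragraph was refitted without single libraries. ANGPTL4, an inhibitor of lipoprotein lipase, rose with IFNγ (2.90). The glycogen-targeting subunit PPP1R3C fell with IFNγ (−2.02), OSM (−1.84) and TNF (−1.52), VLDLR fell with TNF (−1.91) and IFNγ (−1.52), and the monocarboxylate transporter SLC16A7 fell with IFNγ (−1.71). In the list of 25 tested hypoxia targets outside the members, 2 rose and 1 fell with OSM (median log2 fold change over the list 0.25). With TGF-β1 3 rose and 2 fell (median 0.34), with IFNα 1 rose (0.21) and with IFNγ 2 rose and 3 fell (0.17). With TNF 1 rose and 5 fell (−0.14), with IL-1β 1 rose and 5 fell (0.08) and with IL-13 2 rose and 2 fell (0.02). With IL-17A 1 fell (0.03). Whether these genes follow HIF1A was not tested.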

How the data were processed

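The authors checked reads with FastQC (0.11.9) and MultiQC (1.14), quantified them with kallisto (0.48.0) at its defaults, which do not use strand, and deposited estimated counts per gene symbol, which are not scaled for depth; 5.73% of the values are not whole numbers. The submitters' processing notes name hg38; the transcriptome release and the RNA extraction kit of each library (1 of 2 named) are not given in the sources used here.

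The deposited estimated counts were rounded and analysed in R (4.3.3). Low genes were dropped with edgeR's filterByExpr (9513 of 40663 symbols stayed), TMM factors set the library sizes, and 1 quasi-likelihood model took all 44 libraries (edgeR 4.0.16; common biological coefficient of variation 0.331), with 1 coefficient per group. p-values are two-sided, with Benjamini-Hochberg adjustment inside each comparison. CPM are edgeR's, on TMM-normalized library sizes. No column was left out (0 unmapped), 0 of 66 replicate pairs were identical, and no pair's chi-square per degree of freedom was under 3.21.

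Members and pathway lists were chosen with earlier results of these data known. All 36 members are named; values by library go to the 12 with the smallest p among groups, and other pathway genes are named past a log2 fold change of 1.5. Coordinates and transcript GC content are from GENCODE release 44 (GRCh38; 99.23% of symbols matched). Pseudogene symbols held at most 0.485% of a member's counts. Alternatives were DESeq2's size factors and Wald test (1.42.0), 2 other filters, only the groups compared, a replicate block, each library left out and, added after seeing the data, a GC correction (a lowess curve per library, span 0.3). The tests were first tried on simulated counts. Floors cover counting error only, as PCR copies of a molecule cannot be told from separate molecules.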

Additional observations from a re-analysis of the deposited data

Results flagged for a closer look

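In 143 sets of 4 replicates (library totals and the 12 members described library by library), 10 had a highest or lowest replicate whose gap to the nearest other, divided by the range, exceeded Dixon's critical value; chance alone gives about 7.2. TPI1 was at 442 CPM in unstimulated replicate 1, against 187 to 224 CPM in the other 3, and this is the library with the GC tilt of 0.39. TPI1 was also high in IL-17A replicate 3, at 385 CPM against 192 to 219 CPM, and that library had the highest GC tilt of its group (0.22). PGK1 was at 637 CPM in OSM replicate 1, against 482 to 500 CPM, and the call for OSM passed without it. HIF1A was at 1199 CPM in TGF-β1 replicate 4, against 739 to 779 CPM, and at 1081 CPM in IL-1β replicate 3, against 1026 to 1029 CPM. LDHA was at 738 CPM in IL-1β replicate 1, against 784 to 793 CPM. ADM was at 43.9 CPM in TNF replicate 2, against 53 to 53.3 CPM. SLC2A3 was at 44.9 CPM in IL-6 replicate 3, against 22.3 to 25.7 CPM. The total count was 2095807 in IL-1β replicate 1, against 1620541 to 1660473, and 1486860 in IL-6 replicate 2, against 1612043 to 1627960.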

How the results depend on the processing

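All 37 calls kept their sign in every alternative that could be fitted, and all 37 passed with DESeq2's size factors, with DESeq2's Wald test, with a minimum of 10 counts in 4 libraries and with the replicate block. They numbered 32 with all genes of any count, 32 with the GC correction and 15 with only the groups compared, where fewer libraries estimate the spread and SLC16A3 with IFNγ could not be tested. In that last setting 1 member passed with TNF, 3 with IFNα, 3 with IFNγ, 1 with TGF-β1, 4 with OSM and 0 with IL-17A. The GC correction left 3 members with IFNα. With IL-17A 2 passed with all genes of any count. For the refits in this section the share over all genes was not recorded, so the counts show only how far the calls moved.

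Without 1 library the number of members passing ranged from 1 to 6 with TNF, 2 to 5 with IFNα, 5 to 13 with IFNγ, 3 to 6 with TGF-β1, 1 to 3 with IL-13, 4 to 10 with OSM and 0 to 1 with IL-17A; it stayed at 1 with IL-1β and at 0 with IL-22 and IL-6. The lowest IFNγ count came without unstimulated replicate 2 or IFNγ replicate 4 and the highest OSM and TNF counts without unstimulated replicate 1.

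With the replicate number as a block 2 members passed with IL-17A, and no other count moved by over 1.5 times. Deviations of libraries with the same number correlated at −0.174 to 0.267 (medians 0.00452 to 0.0261). For different numbers they correlated at −0.335 to 0.303 (median −0.00745). Taken over all genes, this cannot exclude a pairing by number in single members. PDK4 was lower in unstimulated replicates 1 and 2 (24.5 and 15.3 CPM) than in 3 and 4 (59.1 and 73.1 CPM). The same order held with IL-1β, IL-6, IFNα, IFNγ, TGF-β1 and TNF, and not with IL-13, IL-17A, IL-22 or OSM. At a median of 34 counts per tested gene, depth limits members under the floor.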

Other observations

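Other pathway genes passed the test below the log2 fold change of 1.5 used for naming. Those given here were chosen after their values were seen and were not refitted without single libraries. MPC2, a subunit of the carrier that takes pyruvate into mitochondria, was at 238 ± 17.5 CPM (SD, n = 4) unstimulated, at 643 ± 79.9 CPM with TNF (log2 fold change 1.43, edgeR adjusted p = 2.03e-10) and at 502 ± 29.1 CPM with IL-1β (1.08, adjusted p = 2.29e-07). TXNIP, which restrains glucose uptake, was at 62.4 ± 4.35 CPM unstimulated and rose to 155 ± 15.4 CPM with IFNα (1.31, adjusted p = 4.96e-06). It fell to 30.8 ± 5.84 CPM with IL-1β (−1.02, adjusted p = 8.18e-04), to 37.9 ± 4.12 CPM with TNF (−0.72, adjusted p = 0.0175) and to 38 ± 11.6 CPM with TGF-β1 (−0.73, adjusted p = 0.0339). PDP1, a phosphatase that switches pyruvate dehydrogenase back on, rose with IFNγ (0.98, edgeR adjusted p = 0.0213), and PDHB, a subunit of that enzyme, rose with TGF-β1 (0.63, adjusted p = 0.00623). PFKFB2, a relative of PFKFB3, fell with TNF (−1.30, adjusted p = 0.0236). SLC16A7 rose with IL-1β (0.98, adjusted p = 0.00723) and fell with IFNα (−0.92, adjusted p = 0.014).

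Direct comparisons of cytokines gave further values. BNIP3L was lower with IL-13 than with 8 of the other 9 cytokines; the largest differences in log2 level were 1.00 against IFNγ (adjusted p = 6.36e-05) and 0.98 against IL-1β (edgeR adjusted p = 8.35e-05), and the difference from IL-6 did not pass (0.57, adjusted p = 0.0758). SLC2A3 was higher with IFNγ than with 6 of the other 9, by up to 2.37 against IL-17A (adjusted p = 2.21e-04) and 2.12 against IL-1β (adjusted p = 5.75e-04), and not past the test against TNF (0.93), OSM (1.19) or IL-6 (1.03). IFNγ replicate 3 was at 124 CPM, the other 3 at 21.6 to 52 CPM. The direct comparisons of BNIP3L and SLC2A3 were not refitted without single libraries.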
